A study of Mus musculus with 10 samples.

Results

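The genes described here are 8 genes known from mouse primordial germ cells, the founder cells of eggs and sperm: *Prdm1*, *Prdm14*, *Dppa3*, *Nanos3*, *Ifitm1*, *Ifitm3*, *Kit* and *Dnd1*. They were taken by gene symbol from a table of 20974 genes, and all 8 were present, each in 1 row. RNA had been sequenced from 10 single mouse embryos at embryonic day (E) 7.5, each its own library. Of these, 5 were *Rreb1*+/+ (wild-type) and 5 were *Rreb1*-/- (mutant), all from intercrosses of *Rreb1*+/- parents, and each genotype has replicates numbered 2 to 6. The strain is labelled CD1, and the study's methods give a background of CD-1 mixed with inbred strains. *Rreb1* encodes a zinc finger transcription factor. The mutant allele was made with CRISPR-Cas9 by deleting most of the coding sequence of 1 exon, in a pair of lines with deletions of different size that were not kept apart. The parietal endoderm had been taken off for genotyping, so each library holds the rest of an embryo with its embryonic and extraembryonic parts. Values are normalized counts, which are reads per gene divided by the authors' size factor for that embryo.

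In the mouse, primordial germ cells arise from the proximal epiblast in response to BMP4 and BMP8B from the extraembryonic ectoderm and to WNT3. The transcription factors PRDM1 (BLIMP1), PRDM14 and TFAP2C then repress somatic genes, restore pluripotency genes and start the loss of DNA methylation. By E7.5 a small cluster of such cells lies at the base of the allantois, the bud that will form part of the umbilical cord. In a whole embryo these cells are few, and several of the 8 genes are also known from other cells: *Prdm1* from visceral endoderm, *Ifitm1* and *Ifitm3* from epiblast and mesoderm, and *Kit* from blood progenitors and endothelium. A lower value of such a gene can come from fewer cells of a type or from less RNA per cell, and these cannot be told apart in bulk samples.

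None of the 8 genes was called different between mutants and wild-type embryos. Of the 6 that were abundant enough to test, 5 had a log2 fold change below 0 and 1 above, and the estimates lay between −0.15 and 0.02. The wild-type and mutant values overlapped for all 8 genes, while 6.70% of all tested genes had values that did not overlap between genotypes. For 4 of them (*Prdm1*, *Ifitm1*, *Ifitm3* and *Kit*) the embryos were instead ordered by replicate number, with replicates 5 and 6 of each genotype higher than its replicates 2 to 4. This order was present in 8.15% of all tested genes. The genes most restricted to germ cells, *Dppa3* and *Nanos3*, had at most 10 and 4 reads in any embryo.

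Of the 8 genes, 5 had a promoter window in the RefSeq table for GRCm38.p6 (*Ifitm1*, *Ifitm3*, *Kit*, *Nanos3* and *Prdm1*), and *Prdm14*, *Dppa3* and *Dnd1* had none there. The stretches below belong to 3 cell surface genes whose replicates 5 and 6 were higher in both genotypes. *Prdm1* had the same order, and its stretch is not printed. For *Kit* the stretch ends at the base before the first annotated exon. For *Ifitm1* it lies before the RefSeq start site but inside the gene as annotated in GENCODE M21, which begins at 140967221. For *Ifitm3* the stretch covers the first 30 bases from the RefSeq start site. This site lies inside the gene as annotated in GENCODE M21, which begins at 141010770 on this strand. All are written 5′ to 3′ on the strand of the gene.

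*Kit*, chr5:75574816-75574915 (+): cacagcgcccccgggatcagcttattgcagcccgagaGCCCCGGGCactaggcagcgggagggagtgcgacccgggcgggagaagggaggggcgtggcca
*Ifitm1*, chr7:140967928-140968027 (+): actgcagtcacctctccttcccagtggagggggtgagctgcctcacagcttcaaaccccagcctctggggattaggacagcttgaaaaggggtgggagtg
*Ifitm3*, chr7:141010715-141010744 (−): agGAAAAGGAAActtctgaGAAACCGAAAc

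Capitals mark matches to 2 of 5 motifs that were searched on both strands of windows from 250 bases before to 50 after a start site. In *Ifitm3* they are 2 matches to the interferon-stimulated response element, a pair of GAAA blocks with any 2 bases between. They begin at bases 3 and 20 counted from the RefSeq start site. This motif was present in 3.44% of the 32851 windows of all genes. It was found in none of the other members' windows, *Ifitm1* included. In *Kit* the capitals mark a match to the TFAP2 motif, GCCNNNGGC, which reads the same on both strands and was present in 16.6% of all windows. *Nanos3* also held a TFAP2 match, 221 bases before its start site and outside any stretch printed here. The PRDM14 motif GGTCTCTAA, the Brachyury motif TCACACCT and the RREB1 core AAACCACCC were in 0.256%, 1.27% and 0.271% of all windows and in none of the 5 members. These are matches of letters only.

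The comparison of genotypes used limma on log2(normalized count + 1). It covered the 15603 genes whose mean reached 15 in 1 genotype or both, with Benjamini-Hochberg adjustment over all of them, and an adjusted p under 0.05 made a call. Of all tested genes 3.11% were called higher and 1.15% lower in the mutants. Of the 6 members tested, 0 were called in either direction by limma, 0 had an unadjusted p under 0.05, and 0 were called by edgeR or DESeq2 on the reads behind the values. Their median log2 fold change was −0.12, against −0.02 over all tested genes. *Dppa3* and *Nanos3* were below the filter, and the fitted value of *Dppa3* comes from the same fit without it. Each member was also compared on its own by exact permutation (two-sided) over all ways to divide the embryos 5 and 5, for which the smallest possible p is 0.00794. Its p lay between 0.349 (*Dppa3*) and 0.968 (*Prdm14*).

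**Figure D1:**
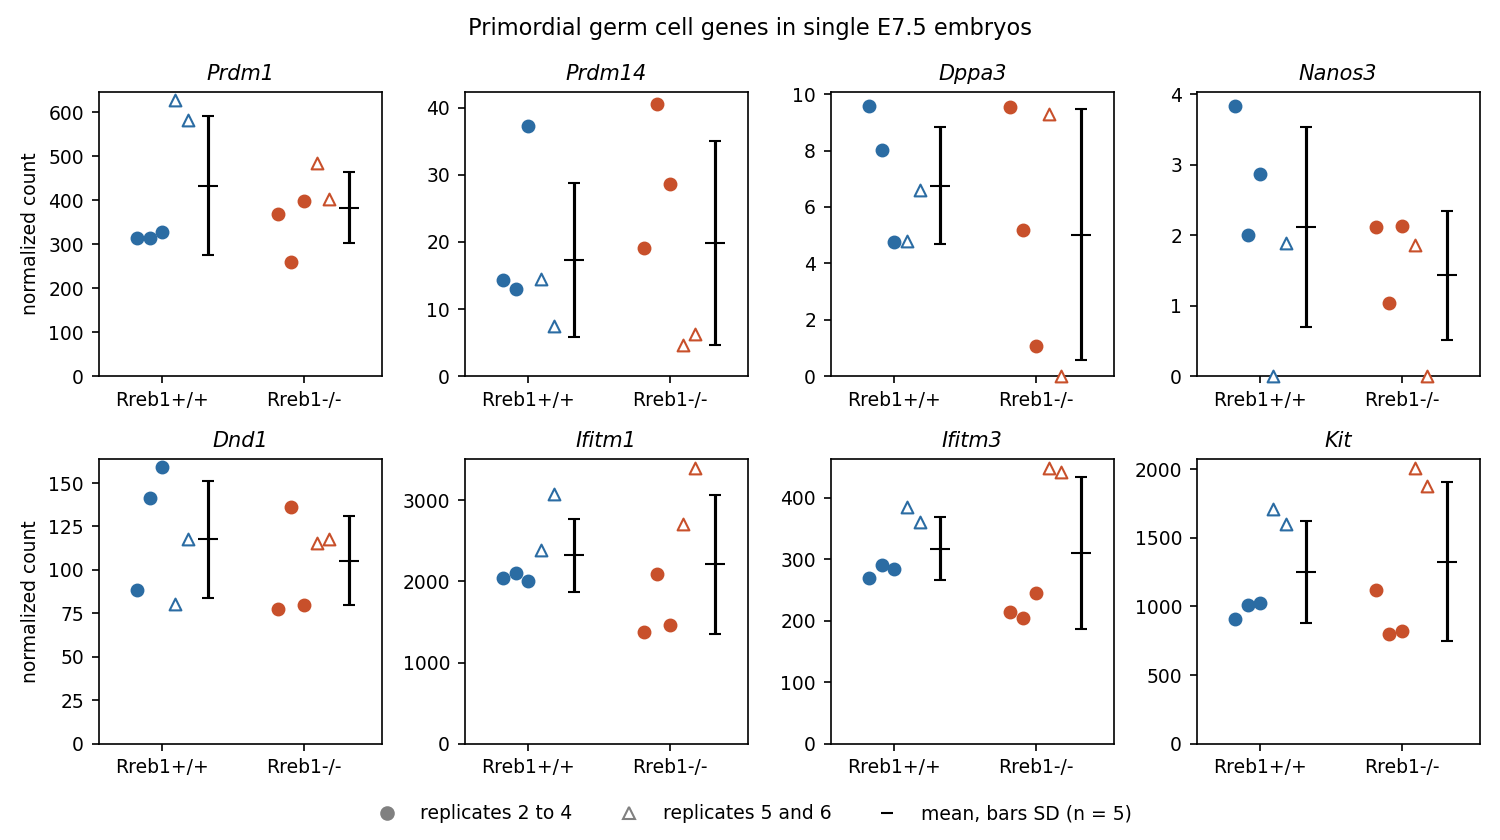
Normalized counts of the 8 genes in each embryo, with 1 panel per gene, linear axes that start at 0, filled circles for replicates 2 to 4, open triangles for replicates 5 and 6, and black bars for the mean ± SD of 5 embryos. The genotypes overlap in every panel, while the triangles lie above the circles of the same genotype for *Prdm1*, *Ifitm1*, *Ifitm3* and *Kit*.

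The libraries held 31467767 to 35786876 reads counted in genes. Sequencing depth was thus alike, but other features of the embryos bear on every comparison below. All 5 wild-type embryos and mutant replicate 2 had *Xist* normalized counts of 45657 to 68009 and at most 3.82 over the summed Y-linked genes. Mutant replicates 3 to 6 had *Xist* at 39.3 to 61.3 and Y-linked sums of 5849 to 9171. Genotype and sex can therefore be told apart only through 1 mutant embryo. *Rreb1* itself was higher in the mutants (2644 ± 211 in wild-type and 5010 ± 718 in mutant embryos, SD, n = 5 each, limma log2 fold change 0.91), in counts summed over all exons of an allele that lacks part of 1.

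Among the transcription factors, *Prdm1* is found on the minus strand of chromosome 10, from 44437177 to 44528501 in GENCODE M21 (GRCm38), the annotation used for all genes here. It encodes BLIMP1, a zinc finger repressor that is required for germ cell specification and is also made in visceral endoderm. Its normalized count was 315, 313, 327, 627 and 582 in wild-type replicates 2 to 6, and 369, 259.8, 397, 484 and 402 in the mutants in the same order. The 2 highest embryos were wild-type replicates 5 and 6, and the lowest was mutant replicate 3. The means were 433 ± 158 and 382 ± 80.9 (SD, n = 5 each). Mutants thus differed by −0.13 on the log2 scale (standard error 0.24, 95% interval −0.66 to 0.39, limma, adjusted p = 0.816). This interval reaches from 0.634 to 1.31 times the wild-type level.

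*Prdm14*, on chromosome 1 from 13113457 to 13127163 (minus strand), encodes a PR domain protein that in this stage is largely restricted to germ cells and supports their return to a pluripotent state. It was close to the lower limit of what was tested, with 5 to 39 reads per embryo. The wild-type embryos had 14.4, 13.1, 37.2, 14.4 and 7.54, and the mutants 19.07, 40.5, 28.7, 4.65 and 6.26. Wild-type replicate 4 stood with mutant replicates 3 and 4 at the top, and mutant replicates 5 and 6 were the lowest of all. The means were 17.3 ± 11.5 and 19.8 ± 15.2 (SD, n = 5 each). On the log2 scale the mutants differed by −0.02 (standard error 0.59, limma, adjusted p = 0.991), whereas edgeR on the reads gave 0.19 and DESeq2 0.19, so the sign depended on the method. The 95% interval of the limma estimate, −1.31 to 1.27, corresponds to 0.402 to 2.42 times the wild-type level.

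The next members encode proteins that act in established germ cells. *Dppa3* (Stella), on chromosome 6 from 122626410 to 122630272 (plus strand), encodes a protein that protects DNA methylation in the zygote and is a classical marker of germ cells at E7.5. Its wild-type values were 9.59, 8.03, 4.77, 4.80 and 6.59, and the mutant values 9.54, 5.20, 1.06, 9.29 and 0. Both genotypes reached between 9 and 10 at the top, and 2 mutants, replicates 4 and 6, lay below every wild-type embryo. The 35 wild-type and 25 mutant reads gave means of 6.76 ± 2.09 and 5.02 ± 4.46 (SD, n = 5 each) and a log2 fold change of −0.83 in the unfiltered fit (95% interval −2.18 to 0.53, limma, adjusted p = 0.587). The size depended on the method, at −1.06 with a pseudocount of 0.5, −0.34 with 5, −0.41 in edgeR and −0.42 in DESeq2. In mutant replicate 6 no read was counted, which allows a normalized count of up to 3.13 (3 reads, counting error only). The mouse genome holds a pseudogene of *Dppa3* on the X chromosome, and how reads common to both were counted is not given in the sources used here.

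*Nanos3*, on chromosome 8 from 84173731 to 84185217 (minus strand), encodes an RNA-binding protein that keeps migrating germ cells alive. It had 11 reads over the wild-type and 7 over the mutant embryos. The values were 3.84, 2.01, 2.86, 0 and 1.88 in wild-type and 2.12, 1.04, 2.12, 1.86 and 0 in mutant embryos. One embryo of each genotype had no read, wild-type replicate 5 and mutant replicate 6, for which 3 reads would be 2.88 and 3.13. Since most other embryos were also at or below 3 reads, no fold change is given between the genotypes.

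*Dnd1*, on chromosome 18 from 36763671 to 36766214 (minus strand), encodes an RNA-binding protein that shields transcripts of germ cells from microRNAs. Its values were 88.3, 142, 159, 80.7 and 118 in wild-type and 77.4, 136, 79.6, 115 and 118 in mutant embryos. High and low embryos were mixed between genotypes, with wild-type replicate 4 the highest and mutant replicate 2 the lowest. The means of 118 ± 33.7 and 105 ± 25.7 (SD, n = 5 each) gave a log2 fold change of −0.15 (standard error 0.23, 95% interval −0.66 to 0.37, limma, adjusted p = 0.793). The last 140 of its 2412 exon bases overlap *Wdr55* on the opposite strand, which had mean normalized counts of 2239.95 and 2199 in the 2 genotypes, and whether the counting used strand is not given in the sources used here.

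The membrane proteins were the most abundant members per kilobase of exon. *Ifitm1* and *Ifitm3* (Fragilis) are neighbours in the Ifitm cluster of chromosome 7, from 140967221 to 140969825 (plus strand) and from 141009586 to 141010770 (minus strand). They encode small interferon-inducible transmembrane proteins, paralogs of similar sequence, that mark the epiblast region from which germ cells arise. *Ifitm1* was at 2039, 2105, 2005, 2393 and 3084 in wild-type embryos and at 1375, 2098, 1461, 2713 and 3402 in mutants. The 2 lowest embryos were mutant replicates 2 and 4 and the highest was mutant replicate 6, so the mutants spanned the whole wild-type range. Its means were 2325 ± 451 and 2209.7 ± 858 (SD, n = 5 each), with a log2 fold change of −0.14 (standard error 0.24, 95% interval −0.66 to 0.38, limma, adjusted p = 0.804).

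*Ifitm3* had values of 269, 290.1, 284, 384 and 359.8 in wild-type embryos and 214, 204, 245, 449 and 441 in mutants. All 5 wild-type embryos lay between the 3 lowest and the 2 highest mutants. The means were nevertheless close, at 317 ± 51.3 and 311 ± 124 (SD, n = 5 each), with a difference of −0.11 on the log2 scale (standard error 0.24, 95% interval −0.63 to 0.42, limma, adjusted p = 0.864).

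*Kit*, on chromosome 5 from 75574916 to 75656722 (plus strand), encodes the receptor tyrosine kinase for KIT ligand, needed by germ cells, blood progenitors and melanocytes. Its wild-type values were 908, 1007, 1027, 1709 and 1599.5, and its mutant values were 1122, 798, 819, 2006 and 1874. Replicates 5 and 6 of both genotypes were the 4 highest embryos, and mutant replicates 3 and 4 were the lowest. With means of 1250.2 ± 374 and 1324 ± 579 (SD, n = 5 each), it was the only tested member with an estimate above 0 (log2 fold change 0.02, standard error 0.29, 95% interval −0.62 to 0.66, limma, adjusted p = 0.980).

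**Figure D2:**
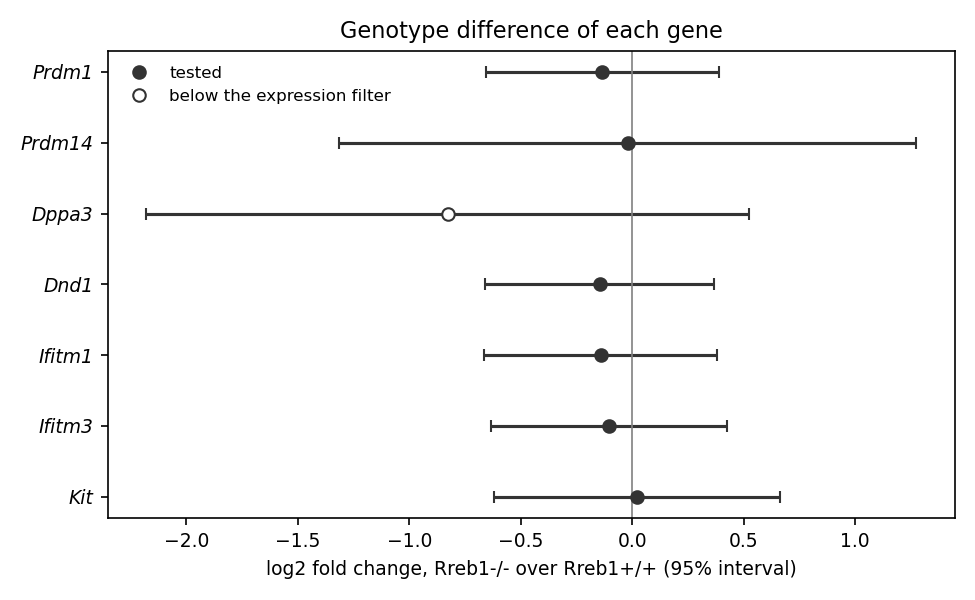
Log2 fold change of each gene (x axis, mutant over wild-type) with its 95% interval from limma, filled for the 6 genes tested and open for *Dppa3*, which was fitted without the expression filter. *Nanos3* is left out for want of reads. Every interval includes 0, and those of *Prdm14* and *Dppa3* are the widest.

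To compare levels between genes, normalized counts were divided by the exon length in GENCODE M21. Over the 10 embryos *Ifitm1* stood highest, at 2073 ± 593 per kilobase (SD, n = 10 embryos), a level above 95.4% of the tested genes. It was followed by *Ifitm3* at 463 ± 132, *Kit* at 144 ± 51.8, *Prdm1* at 73.0 ± 21.7 and *Dnd1* at 46.2 ± 12.03. The lowest were *Prdm14* at 7.25 ± 4.98, *Dppa3* at 6.60 ± 3.82 and *Nanos3* at 1.92 ± 1.28 per kilobase, with 6.87%, 6.05% and 0.456% of the tested genes below them. Ranges did not overlap between *Ifitm1* and *Ifitm3*, between *Ifitm3* and *Kit*, or between *Dnd1* and *Prdm14*. *Kit* exceeded *Prdm1* in all 10 embryos although their ranges overlapped. *Prdm1* exceeded *Dnd1* in 7 of 10 embryos and *Prdm14* exceeded *Dppa3* in 5 of 10, so those neighbours were not ordered beyond their spread.

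For 4 members the values divided by replicate number rather than genotype. This grouping was seen in the data and does not stand for a batch named in the labels, so it is described and not tested. In *Kit*, replicates 5 and 6 averaged 1.69 times replicates 2 to 4 in wild-type and 2.13 times in mutant embryos, and the 4 embryos of replicates 5 and 6 lay above all 6 others. The ratios were 1.32 and 2.01 for *Ifitm3*, 1.34 and 1.86 for *Ifitm1*, and 1.90 and 1.30 for *Prdm1*, with both embryos above the other 3 of their genotype each time. Such an order in both genotypes was found in 8.15% of all tested genes. *Prdm14* went the other way, with ratios of 0.509 and 0.185, but its wild-type ranges overlapped. *Dnd1* had ratios of 0.765 and 1.19 with overlap in both genotypes.

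Marker sums of several other tissues moved with the same division, although single markers did not all follow. The summed normalized count of 11 blood and hemogenic progenitor markers was 6217 to 8658 in replicates 2 to 4 and 12169.8 to 23302 in replicates 5 and 6. That of 10 extraembryonic mesoderm and allantois markers was 9961.5 to 14839.5 and 17289 to 21016. In contrast, 10 primitive streak markers summed to 12798 to 16826 in replicates 2 to 4 and 6115 to 7379 in replicates 5 and 6. The 16 transcription and pluripotency factors of germ cells summed to 63000.3 to 70846 and 52712 to 61112. In the blood list *Gata2*, *Kdr* and *Runx1* overlapped between the sets. So did *Ahnak*, *Bmp4*, *Foxf1*, *Hand1*, *Pitx1* and *Tbx20* in the extraembryonic mesoderm list, and *Cdx2*, *Evx1*, *Fgf8*, *Mesp2* and *Tbx6* in the streak list. Of the germ cell factors, *Klf2*, *Klf4*, *Klf5*, *Lin28a*, *Sall4*, *Sox2*, *Tfap2c*, *Tfcp2l1*, *Utf1* and *Zfp42* overlapped. *Lin28a*, with the highest values of that list, was at 31577 to 42751 in replicates 2 to 4 and 31887 to 39734 in replicates 5 and 6. The blood gene *Hbb-bh1* was at most 817 in replicates 2 to 4 and 1730 to 9927 in replicates 5 and 6. The 9 markers of maternal decidua and immune cells in the table came to 244 to 365 and 677 to 1018, with 5 of the 9 below the expression filter. Most of that sum came from *Hand2* (85.8 to 199.5 and 343 to 515) and *Cryab* (32.2 to 104 and 140.4 to 243), while the immune genes *Cd68* (69.0 to 101 and 87.6 to 130.1) and *Tyrobp* (0 to 2.88 and 0 to 12.5) overlapped between the sets. Sums of the 12 visceral endoderm markers (119148 to 164300 and 113536 to 167419) and of the 11 extraembryonic ectoderm markers (13035 to 18945 and 13949.6 to 17853) also overlapped. No marker of these lists that had a row was at 0 in all embryos, and markers without a row could not be counted. The part of these tissues in the values of *Kit*, *Ifitm1*, *Ifitm3* and *Prdm1* was not tested.

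Because of this division the genotypes were also compared within replicates 2 to 4 (3 and 3 embryos) and within replicates 5 and 6 (2 and 2), and the difference between the genotype effects was tested as an interaction in limma. The interaction was called for 7 of all tested genes (0.0449%) and for 0 of the 6 members tested. With an unadjusted p under 0.05 there was 1 member, *Ifitm3*, and 5.35% of all tested genes. In replicates 2 to 4 the *Ifitm3* values of the mutants (204 to 245) lay below those of the wild-type embryos (269 to 290.1), by −0.35 on the log2 scale (limma, adjusted p = 0.132). In replicates 5 and 6 the mutants (441 to 449) lay above the wild-type embryos (359.8 to 384), at 0.26 (limma, adjusted p = 0.600). Both p-values come from the interaction fit to all 10 embryos. Fits to replicates 2 to 4 alone and to 5 and 6 alone gave *Ifitm3* adjusted p = 0.259 and 0.529 (limma). The interaction was 0.61 (standard error 0.19, 95% interval 0.19 to 1.02) and did not pass the threshold (limma, unadjusted p = 0.00843, adjusted p = 0.577). A complete reversal of this kind, in either direction, was present in 1.35% of the tested genes.

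The other members showed wider or overlapping values. For *Prdm1* the mutants were at 0.08 in replicates 2 to 4 and at −0.45 in replicates 5 and 6, where both mutants (402 and 484) were below both wild-type embryos (582 and 627). *Kit* had −0.12 and 0.23, and in replicates 5 and 6 both mutants (1874 and 2006) were above the wild-type embryos (1599.5 and 1709). *Ifitm1* had −0.34 and 0.16, and *Dnd1* −0.41 and 0.26, with overlap in both sets. *Prdm14* had 0.53 and −0.84, and in replicates 5 and 6 both mutants (4.65 and 6.26) were below the wild-type embryos (7.54 and 14.4). The interactions of these 5 genes had adjusted p = 0.946 in limma. Replicates 5 and 6 hold only 2 embryos per genotype, and the share of all tested genes separated there was not counted.

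**Figure D3:**
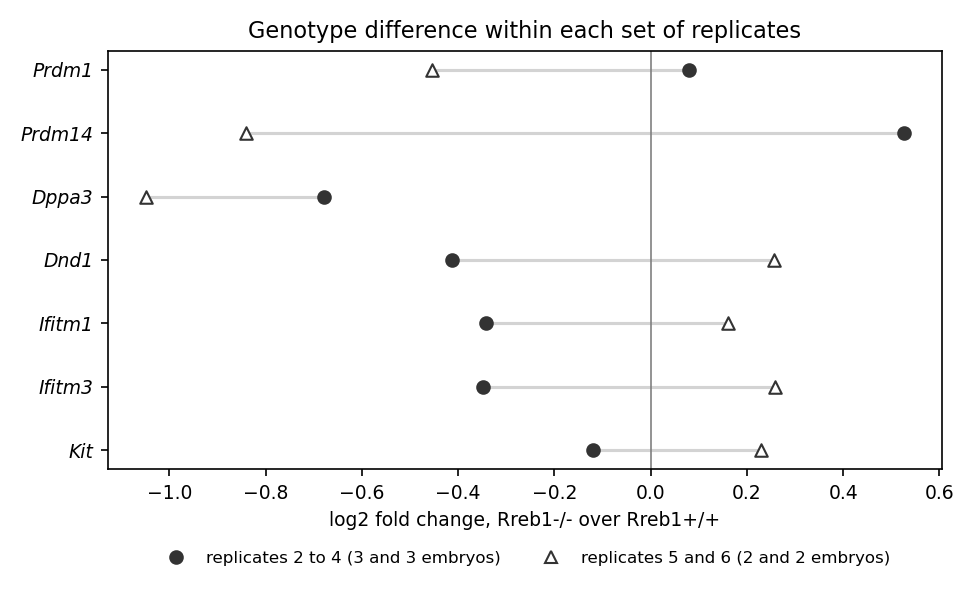
Log2 fold change of each gene between mutant and wild-type embryos, on the x axis, within replicates 2 to 4 (filled circles) and within replicates 5 and 6 (open triangles). For *Ifitm1*, *Ifitm3*, *Kit* and *Dnd1* the circle is below 0 and the triangle above, and for *Prdm1* and *Prdm14* the reverse, while both are below 0 for *Dppa3*. *Nanos3* is left out for want of reads.

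For each tested member, the 3 genes most like it were found by Pearson's r of the deviations of log2(normalized count + 1) from the genotype means over the 10 embryos. All of these values are descriptions. *Kit*, *Ifitm1*, *Ifitm3* and *Prdm1* share the division between replicates 2 to 4 and 5 and 6. *Dnd1* overlapped between these sets in both genotypes, and *Prdm14* in wild-type embryos. *Kit* was most like *Spg20* (r = 0.991), *Dhrs3* (0.990) and *Ache* (0.986). *Ifitm3* was most like *Hoxc8* (0.990), *Nkx2-3* (0.986) and *Itga2b* (0.984), and *Ifitm1* like *Adprh* (0.969), *Etv2* (0.966) and *Ppp1r14a* (0.964). *Prdm1* had *Fez1* (0.9753), *Stambpl1* (0.963) and *Chsy1* (0.945). *Dnd1* was like *Mzt2* (0.974) and *Crb3* (0.969), and *Prdm14* like *Oas1a* (0.957), *Parp14* (0.950) and *Glyatl3* (0.950).

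The wider germ cell pathway was examined in 17 further lists, which held 157 tested genes besides the members. limma called 3 of them (2 lower, 1 higher), or 1.91% against 4.26% of all tested genes. An unadjusted p under 0.05 was found for 23 (14.6% against 17.95% of all), edgeR called 3 (1.91% against 4.32%) and DESeq2 7 (4.46% against 7.77%). The 3 were 2 visceral endoderm genes and 1 interferon response gene, and none belonged to a germ cell list. With the replicate number as a block 12 were called (7.64%, against 6.87% of all tested genes), among them *Wnt3* (log2 fold change 0.96, blocked adjusted p = 0.0398, unblocked 0.420), *Dppa4* (0.77, blocked 0.0427), *Lin28a* (−0.21, blocked 0.0399), *Uhrf1* (−0.33, blocked 0.0266), *Nanos1* (0.68, blocked 0.0488) and *Tdrd1* (−0.68, blocked 0.0356), all in limma. The others were the 3 genes above, the streak gene *Mesp2* and the blood genes *Gata1* and *Hbb-bh1*, and those beyond the 3 are named after their values were seen.

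Of the 5 ligands that induce germ cells, 0 were called, with a median log2 fold change of 0.22. *Bmp4*, the main inducing signal, was at 1283 ± 43.5 in wild-type and 1553 ± 296 in mutant embryos (0.26, limma, adjusted p = 0.264). *Bmp8b*, its partner from the extraembryonic ectoderm, was at 649 ± 59.0 and 713 ± 179 (0.10, limma, adjusted p = 0.798). *Wnt3*, which makes the epiblast able to respond, was at 128 ± 77.2 and 272 ± 180.2 (0.96, limma, adjusted p = 0.420; SD, n = 5 in each case). The wild-type range of *Wnt3* was 52.8 to 243 and the mutant range 76.2 to 499.8, and in both genotypes together replicates 5 and 6 had 52.8 to 101 and replicates 2 to 4 had 141 to 499.8. Of the 10 BMP receptors and SMADs 0 were called (median 0.04), and of 9 BMP target genes, among them the Id genes, 0 (median 0.17).

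Of 16 transcription and pluripotency factors 0 were called by limma (median 0.05), although DESeq2 called 1. *Tfap2c*, which acts with PRDM1 and PRDM14 and is also made in trophoblast, was at 2312 ± 924 and 2383 ± 521 (0.11, limma, adjusted p = 0.871). *Nanog* was at 549 ± 249.9 and 706 ± 394 (0.26, limma, adjusted p = 0.825), and *Pou5f1* at 6823 ± 3155 and 7128 ± 3659 (0.02, limma, adjusted p = 0.987). *Sox2* was at 1062 ± 94.1 and 1180.2 ± 234 (0.13, limma, adjusted p = 0.634). For *Nanog* and *Pou5f1*, pluripotency genes of both epiblast and germ cells, replicates 5 and 6 (243 to 318 and 3060.2 to 4149.6) lay below replicates 2 to 4 (619 to 1077 and 6806 to 11366). Of 11 factors that oppose the germ cell fate, 0 were called by limma and 1 by DESeq2 (median −0.19), and *Otx2*, which restrains entry into the germline, was at 1449 ± 275 and 1473 ± 562 (−0.04, limma, adjusted p = 0.952).

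*Kitl*, the ligand of KIT, was at 1966 ± 269 in wild-type and 1948 ± 163 in mutant embryos (SD, n = 5 each, log2 fold change −0.01, limma, adjusted p = 0.983). Its list of 8 ligands, receptors and adhesion genes of migrating germ cells had 0 calls and a median of 0.01. None was called among the 8 epigenetic regulators and partner proteins (median −0.11) or the 10 tested RNA partners of NANOS3 and DND1 (median 0.00, 1 called by DESeq2). Of 21 genes of later germ cells 15 passed the filter and 0 were called (median 0.08), with 6 below it (*Asz1*, *Hormad1*, *Stra8*, *Piwil4*, *Mael* and *Tdrd9*).

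Among the genes that share a family or an inducer with *Ifitm3*, 2 other IFITM genes passed the filter and 0 were called (median 0.34). Of 12 tested interferon response genes 1 was called, the chemokine gene *Cxcl10*, which was at 11.0 ± 3.95 in wild-type and 82.8 ± 36.4 in mutant embryos (SD, n = 5 each, log2 fold change 2.78, limma, adjusted p = 0.00109). All 5 mutants (45.5 to 138) were above all wild-type embryos (4.80 to 15.4), whereas *Ifitm3* and *Ifitm1* overlapped between genotypes. The call of *Cxcl10* was lost with the Y-linked covariate (log2 fold change 3.27, limma, adjusted p = 0.0545). The median of the 12 was 0.38.

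Of the marker lists for other cells, the visceral endoderm list held 2 calls of 12 tested, both lower. The others held none in the main limma fit to all 10 embryos. *Afp*, a plasma carrier protein, was at 12203 ± 1872 in wild-type and lower, at 5248 ± 2285, in mutant embryos (−1.32 on the log2 scale, limma, adjusted p = 0.0157). *Apoa4*, an apolipoprotein, was at 5202 ± 1881 and 2228 ± 815 (−1.21, limma, adjusted p = 0.0339; SD, n = 5). With each embryo left out in turn, *Afp* was called in 10 of 10 fits but *Apoa4* in 2, those without wild-type replicate 2 or without mutant replicate 6, with an adjusted p of 0.0119 to 0.0851 in limma. With the Y-linked covariate neither was called (limma, adjusted p = 0.184 for both). The list's median was −0.03, and its sum was 153912 to 167419 in wild-type and 113536 to 162893 in mutant embryos. The 11 blood markers had 0 calls in the main fit to all 10 embryos (median −0.45). Their sums were 7553 to 23302 in wild-type and 6217 to 12909 in mutant embryos. In replicates 2 to 4 alone, limma called *Hbb-bh1* (−4.08, adjusted p = 0.00239), *Tal1*, *Gata1*, *Lmo2* and *Klf1*, all lower in mutants. In replicates 5 and 6 alone, limma called *Hbb-bh1* (−2.10, adjusted p = 0.0182) and *Hba-x* (−5.01, adjusted p = 0.0076), both lower. These genes are named after their values were seen. Neither the 10 extraembryonic mesoderm markers (median −0.06), the 10 tested extraembryonic ectoderm markers (−0.20), the 10 primitive streak markers (0.42, 1 called by DESeq2) nor the 4 tested maternal markers (−0.07) had a call in the main fit. *Eomes*, in both the extraembryonic ectoderm and the streak list, was called higher in replicates 2 to 4 alone (1.57, limma, adjusted p = 0.00239).

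**Figure D4:**
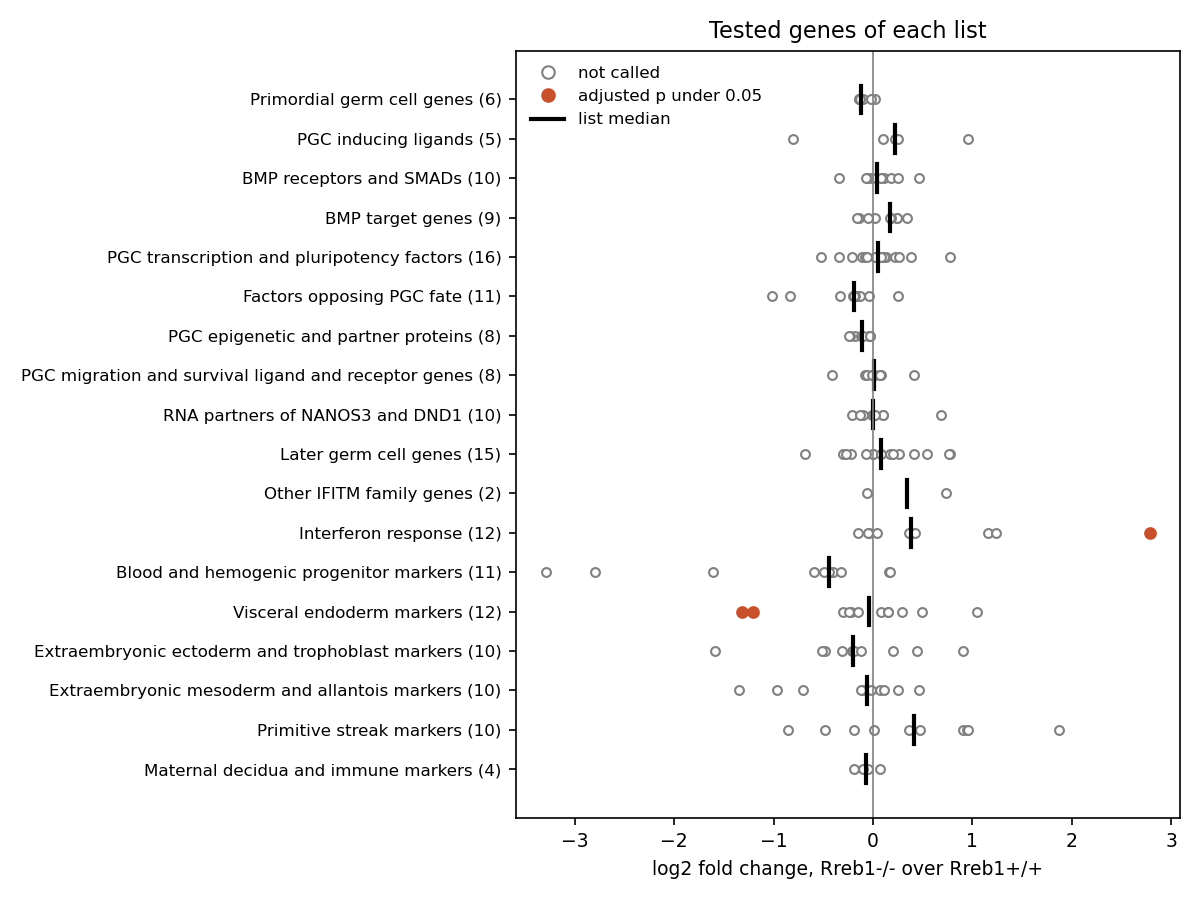
Log2 fold change between mutant and wild-type embryos (x axis) of the tested genes of each list, 1 circle per gene, with the number tested in brackets, filled circles for an adjusted p under 0.05 and a black bar at the list's median. The 6 tested primordial germ cell genes lie within 0.15 of 0, and the filled circles are *Cxcl10*, *Afp* and *Apoa4*.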

How the data were processed

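Polyadenylated RNA of single E7.5 embryos had been prepared with a stranded kit. The authors used STAR for alignment, HTSeq for counting and DESeq for normalization, and the submitters' notes also name Picard. The deposited signal is thus a read count divided by 1 size factor per embryo, on a linear scale. In units of the smallest step of its column, 100% of values were whole (tolerance 0.1 read). The recovered reads served for depth (31467767 to 35786876 per embryo), edgeR 4.0.16 and DESeq2 1.42.0. The main fit was limma 3.58.1 in R 4.3.3, tested on simulated data. Genome positions and exon lengths came from GENCODE M21 by gene ID, since the authors' build is not given in the sources used here. Promoters came from RefSeq (GRCm38.p6).

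Embryos were grouped by labelled genotype. Nothing in the labels ties embryos to litters, and p-values measure the spread between single embryos. Embryos with the same replicate number correlated positively (0.253 to 0.459 for 5 pairs, genotype means removed), and the number was also fitted as a block. Pairs of embryos with different numbers were not compared. Embryos with the same number also share the division between replicate sets described above. These correlations therefore cannot show that the number itself pairs embryos. For the members the block changed no call.

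The members, the lists and the tests were chosen with earlier results of these data known. Named genes were all 8 members, up to 4 called genes of each list, *Bmp4*, *Bmp8b*, *Wnt3*, *Tfap2c*, *Nanog*, *Pou5f1*, *Sox2*, *Otx2* and *Kitl* whatever their values, the 3 genes most like each tested member, *Rreb1*, and the sex-linked genes. For *Dnd1*, 1 of the 3 is not reported here. Of the list genes, *Nanos2*, *Ifitm6*, *Ifit1*, *Prl3c1*, *C1qa*, *C1qb*, *Prf1* and *Gzma* had no row and were not analysed here. Alternatives were TMM factors, quantile normalization, edgeR, DESeq2, pseudocounts of 0.5 and 5, no filter, a mean of at least 50, the block, Y-linked counts as a covariate, leaving out each embryo, and each set of replicates alone. Those for the interaction were added after the data were seen.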

Additional observations from a re-analysis of the deposited data

Results flagged for a closer look

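Among 16 groups of 5 embryos (8 genes in 2 genotypes), 1 held an embryo far from the rest. *Prdm14* in *Rreb1*+/+ replicate 4 was at 37.2, against 7.54 to 14.4 in the other wild-type embryos, a gap to its nearest neighbour of 0.769 of the group's range, past Dixon's 95% critical value. About 1 in 20 groups passes this value by chance. Without that embryo the log2 fold change of *Prdm14* was 0.29 in place of −0.02 (limma, adjusted p = 0.855 and 0.991).

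The genotype effect on *Ifitm3* had opposite signs in the 2 sets of replicates, with every mutant below every wild-type embryo in replicates 2 to 4 and above in replicates 5 and 6. The effect in replicates 5 and 6 minus that in 2 to 4 was 0.61 on the log2 scale (limma, adjusted p = 0.577). It was between 0.55 and 0.68 with each embryo left out in turn, and its adjusted p lay between 0.438 and 0.9998 over the alternatives, so the difference did not pass the test over all genes.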

How the results depend on the processing

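No germ cell gene was called higher or lower in any of 22 alternatives, and none had a called interaction in 16. The sign of the estimate, never past the threshold, turned in several. Replicates 2 to 4 alone gave 0.080 for *Prdm1*, 0.53 for *Prdm14* and −0.12 for *Kit*. Replicates 5 and 6 alone gave 0.16 for *Ifitm1*, 0.26 for *Ifitm3* and 0.26 for *Dnd1*. For *Prdm14*, edgeR gave 0.19, DESeq2 0.19 and a pseudocount of 5 gave 0.031. With the Y-linked covariate *Prdm14* was at 0.12, *Dppa3* at 0.66 and *Kit* at −0.11, and *Ifitm1* moved to −0.70, *Ifitm3* to −0.57 and *Dnd1* to −0.54 (limma, adjusted p = 0.342, 0.457 and 0.479). Leaving out each embryo in turn gave −0.23 to 0.019 for *Prdm1*, −0.37 to 0.35 for *Prdm14*, −0.32 to 0.0077 for *Ifitm1*, −0.26 to 0.024 for *Ifitm3*, and −0.16 to 0.18 for *Kit*, with *Dppa3* at −1.15 to −0.31 and *Dnd1* at −0.27 to −0.02. The causes were not tested. Under the replicate block *Prdm1* had the same estimate, −0.13 (limma, adjusted p = 0.592), and no member's call changed. *Prdm14* has no value at a mean of at least 50. Of the other lists' genes, 3 were called in the comparison reported, 7 by DESeq2, 12 with the replicate block, 15 in replicates 2 to 4 alone, and 2 to 4 with each embryo left out. With the Y-linked covariate 2 were called (*Tbx6* and *Cxcl12*, both lower, named after their values were seen), *Cxcl10*, *Afp* and *Apoa4* were not, and the calls over all genes went from 486 higher and 179 lower to 83 and 24. Depth limits *Prdm14*, *Dppa3* and *Nanos3* most, and no fold change of *Nanos3* is reported from any fit.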
